A study of Mus musculus with 6 samples.

Results

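The Hippo pathway genes described here are the coactivators Yap1 and Wwtr1, the transcription factors Tead1, Tead2, Tead3 and Tead4, the kinases Lats1 and Lats2, and the secreted targets Ccn1 and Ccn2. They were chosen by name, through their gene numbers, and make up 10 of the 25428 features on the arrays, with 1 feature per gene and all 10 measured. Nfat5(EC)-/- mice, in which endothelial cells are without NFAT5, were compared with Nfat5fl/fl mice, which carry floxed Nfat5 alleles, with 3 mice and 3 arrays per genotype, numbered 1, 3 and 4. Every mouse of both genotypes was held at 10% oxygen for 7 days before total RNA of 1 lung lobe was hybridised, so that the arrays compare genotypes in hypoxic lungs and hold no normoxic lung. For the Cre driver, the induction of the deletion and the age of the mice, the sources used here give no entry. Values are log2 expression values, on which a difference of 1 is a doubling.

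The Hippo pathway is a kinase cascade that holds back growth. Upstream kinases of the MST, TAO and MAP4K families, helped by the scaffold MOB1, activate LATS1 and LATS2, which phosphorylate YAP and its paralogue TAZ (encoded by Wwtr1), so that they are retained in the cytoplasm or degraded. When the kinases are idle, for instance in stretched or spread cells, YAP and TAZ enter the nucleus and bind TEAD factors at target genes such as Ccn1 and Ccn2, which encode matricellular proteins. In the lung, the pathway is known for its part in alveolar epithelial differentiation and in vascular growth.

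Each difference is the mean of Nfat5(EC)-/- minus that of Nfat5fl/fl, and was tested with limma for every feature with Benjamini-Hochberg adjustment over all 25428, a gene passing at an adjusted p under 0.05. The targeted gene was low in each Nfat5(EC)-/- lung. Nfat5 measured 4.46, 4.48 and 3.89 in Nfat5(EC)-/- mice 1, 3 and 4, against 6.65, 6.58 and 6.30 in Nfat5fl/fl mice 1, 3 and 4, a difference of -2.23 (SE 0.23, adjusted p = 0.00151). Where its probes lie relative to the deleted part is not known from the sources used here. Arrays correlated at 0.916 to 0.939 within Nfat5(EC)-/-, at 0.968 to 0.970 within Nfat5fl/fl and at 0.829 to 0.919 between the genotypes. Precision is limited by the number of arrays.

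Of the 10 genes, 5 rose, 1 fell and 4 did not pass, where 25.6% of all features passed, 12.5% higher and 13.1% lower. Tead2, Tead3, Tead4, Ccn1 and Ccn2 rose and Lats1 fell. The RNA came from whole lobes, where fewer cells of a type and less RNA per cell cannot be told apart. In 8 of the 10 genes the arrays of the genotypes did not overlap, 5 with Nfat5(EC)-/- above and 3 with it below, while 42% of all features did not overlap, 22% above and 20% below. The median difference of the 10 genes was 0.35, and that of all features was 0.04. By mean level the 10 genes lay from percentile 71.48 (Tead2) to 96.74 (Ccn1), while the shares of all features include every level. The plot of values by array shows each gene in each mouse.

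**Figure D1:**
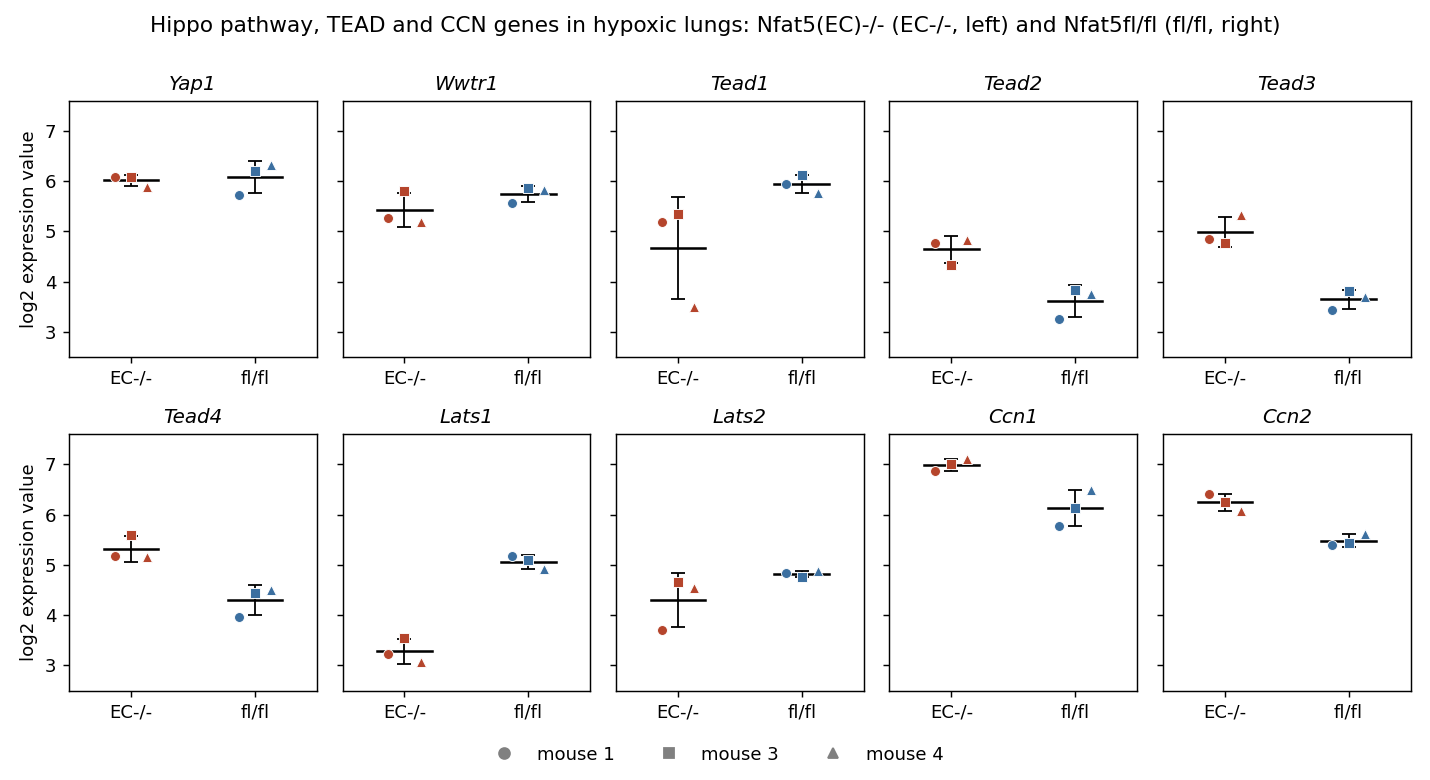
Log2 expression values of the 10 genes on each array, Nfat5(EC)-/- on the left and Nfat5fl/fl on the right of each panel, with 1 point per mouse, the group mean as a horizontal line and the SD as an error bar (n = 3 each). The Nfat5(EC)-/- points lie above the Nfat5fl/fl points for Tead2, Tead3, Tead4, Ccn1 and Ccn2 and below them for Lats1, Tead1 and Lats2, and both overlap for Yap1 and Wwtr1.

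The sequences before the start sites of 3 of the genes that rose are shown because TEAD factors and NFAT5 have known short recognition motifs. Of the 10 genes, 7 matched RefSeq's promoter table for GRCm38.p6 by symbol, in 11 windows of 250 bases before a start site, and Ccn2, Tead1 and Tead4 did not. The TEAD motif GGAATG, or CATTCC on the opposite strand, occurred in the windows of 4 of these 7 genes (Yap1, Wwtr1, Tead3 and Ccn1), against 14.4% of all 27025 genes in the table. The core of the NFAT5 motif, TGGAAA or TTTCCA, occurred in 2 of the 7 (Lats2 and Ccn1), against 20.9% of all genes. The motifs do not share letters in any of these windows. Some genes have several windows and so more chances of a match, and a match describes letters and not binding.

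In Ccn1, at chr3:145649986-145650235 on the minus strand, the NFAT5 core begins 207 bases and the TEAD motif 103 bases before the start site. In Tead3, at chr17:28350806-28351055 on the minus strand, the TEAD motif begins 182 bases before the first of 3 start sites. The window of the second start site, not shown, holds 2 further TEAD matches, 123 and 114 bases before it, and that of the third holds none. In Tead2, at chr7:45215542-45215791 on the plus strand, neither was found. Each is written 5′ to 3′ on the strand of the gene, with the motifs in capitals.
Ccn1: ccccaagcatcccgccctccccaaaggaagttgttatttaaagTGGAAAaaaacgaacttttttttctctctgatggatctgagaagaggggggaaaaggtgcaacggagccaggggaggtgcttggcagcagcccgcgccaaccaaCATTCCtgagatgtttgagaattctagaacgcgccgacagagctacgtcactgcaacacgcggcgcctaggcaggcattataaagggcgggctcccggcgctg
Tead3: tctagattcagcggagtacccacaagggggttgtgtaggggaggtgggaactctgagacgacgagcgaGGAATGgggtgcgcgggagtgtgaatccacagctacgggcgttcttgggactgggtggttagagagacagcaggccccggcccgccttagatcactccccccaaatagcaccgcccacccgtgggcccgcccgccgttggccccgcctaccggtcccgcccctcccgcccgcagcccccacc
Tead2: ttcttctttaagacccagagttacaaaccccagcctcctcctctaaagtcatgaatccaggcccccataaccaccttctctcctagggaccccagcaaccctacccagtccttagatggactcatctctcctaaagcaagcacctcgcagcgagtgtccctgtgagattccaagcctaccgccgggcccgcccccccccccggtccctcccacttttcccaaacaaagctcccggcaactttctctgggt

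The coactivators did not pass the test. Yap1, which encodes YAP, measured 6.09, 6.08 and 5.89 in Nfat5(EC)-/- mice 1, 3 and 4 and 5.73, 6.20 and 6.32 in Nfat5fl/fl mice 1, 3 and 4. The arrays overlapped, with Nfat5fl/fl mouse 1 lowest of all 6. The means were 6.02 ± 0.11 in Nfat5(EC)-/- and 6.08 ± 0.31 in Nfat5fl/fl (SD, n = 3 each), a difference of -0.06 (95% confidence interval -0.55 to 0.42, adjusted p = 0.868). Wwtr1, which encodes TAZ, measured 5.27, 5.80 and 5.19 in Nfat5(EC)-/- mice 1, 3 and 4 and 5.57, 5.87 and 5.81 in Nfat5fl/fl mice 1, 3 and 4. Nfat5(EC)-/- mouse 3 lay within the range of Nfat5fl/fl and mice 1 and 4 below it. The difference was -0.33 (95% confidence interval -0.83 to 0.18, adjusted p = 0.330), so that neither a moderate fall nor a small rise of Wwtr1 is outside the interval. It was -0.52 without Nfat5(EC)-/- mouse 3 and -0.21 without Nfat5(EC)-/- mouse 4.

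The genes whose pattern over the 6 arrays was closest to that of Yap1, after each gene was centred on its own mean, were Cmtr2, an mRNA cap methyltransferase, Rab39, a small GTPase of vesicle traffic, and Vps28, a subunit of the endosomal sorting complex. Their root mean square differences from Yap1 were 0.0519, 0.0584 and 0.071 log2 units among 20467 genes compared. This is a description of the same 6 values and carries no test. Cmtr2 (means 2.30 in Nfat5(EC)-/- and 2.38 in Nfat5fl/fl) and Rab39 (1.67 and 1.82) lay under the median value of an array, 2.98.

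Among the TEAD factors, which bring YAP and TAZ to DNA, 3 rose and Tead1 lay on the other side. Tead3 measured 4.84, 4.77 and 5.33 in Nfat5(EC)-/- mice 1, 3 and 4, against 3.43, 3.82 and 3.69 in Nfat5fl/fl mice 1, 3 and 4. Each Nfat5(EC)-/- array was above each Nfat5fl/fl array. The means were 4.98 ± 0.30 in Nfat5(EC)-/- and 3.65 ± 0.20 in Nfat5fl/fl (SD, n = 3 each), a rise of 1.34 (SE 0.22, adjusted p = 0.00415), or 2.52-fold. Tead3 passed in all 15 alternative settings tried, with differences between 1.16 and 1.44.

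Tead2 measured 4.78, 4.34 and 4.82 in Nfat5(EC)-/- mice 1, 3 and 4, against 3.26, 3.84 and 3.77 in Nfat5fl/fl mice 1, 3 and 4. Nfat5fl/fl mouse 1 was the lowest array and Nfat5(EC)-/- mouse 3 the lowest of its genotype, and the groups did not overlap. The rise was 1.02 (SE 0.23, adjusted p = 0.0136), or 2.03-fold, with means of 4.65 ± 0.27 in Nfat5(EC)-/- and 3.62 ± 0.31 in Nfat5fl/fl (SD, n = 3 each). Tead4 measured 5.18, 5.60 and 5.16 in Nfat5(EC)-/- mice 1, 3 and 4, against 3.97, 4.44 and 4.51 in Nfat5fl/fl mice 1, 3 and 4. Its groups did not overlap either, and Nfat5fl/fl mouse 1 was again the lowest. Tead4 rose by 1.01 (SE 0.23, adjusted p = 0.0131), or 2.01-fold, with means of 5.31 ± 0.25 in Nfat5(EC)-/- and 4.31 ± 0.30 in Nfat5fl/fl (SD, n = 3 each). Without Nfat5fl/fl mouse 1 neither passed, at 0.84 for both (adjusted p = 0.0615 for Tead2 and 0.0603 for Tead4), and without limma's moderation of variances across features neither passed (adjusted p = 0.0797 for Tead2 and 0.0747 for Tead4).

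Tead1 measured 5.18, 5.34 and 3.51 in Nfat5(EC)-/- mice 1, 3 and 4, against 5.94, 6.12 and 5.76 in Nfat5fl/fl mice 1, 3 and 4. All 3 Nfat5(EC)-/- arrays lay below all 3 Nfat5fl/fl arrays, and mouse 4 lay far below the other two of its genotype. The means were 4.67 ± 1.01 in Nfat5(EC)-/- and 5.94 ± 0.18 in Nfat5fl/fl (SD, n = 3 each), a difference of -1.26 (95% confidence interval -2.24 to -0.29) that did not pass (adjusted p = 0.0604). Without Nfat5(EC)-/- mouse 4 the difference was -0.68 (adjusted p = 0.0504). It passed without Nfat5(EC)-/- mouse 1, at -1.51 (adjusted p = 0.0429), and without Nfat5(EC)-/- mouse 3, at -1.59 (adjusted p = 0.0334).

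The LATS kinases, which phosphorylate YAP and TAZ, differed in how far they were separated. Lats1 measured 3.22, 3.55 and 3.08 in Nfat5(EC)-/- mice 1, 3 and 4, against 5.17, 5.09 and 4.91 in Nfat5fl/fl mice 1, 3 and 4. The 3 arrays of each genotype lay close together, and the groups were well apart. The means were 3.28 ± 0.24 in Nfat5(EC)-/- and 5.06 ± 0.13 in Nfat5fl/fl (SD, n = 3 each), a difference of -1.78 (SE 0.20, adjusted p = 0.00181), a 3.42-fold decrease. Lats1 passed in all 15 alternative settings, with differences between -1.91 and -1.64.

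Lats2 measured 3.70, 4.67 and 4.54 in Nfat5(EC)-/- mice 1, 3 and 4, against 4.83, 4.76 and 4.87 in Nfat5fl/fl mice 1, 3 and 4. Nfat5(EC)-/- mouse 1 was low, while mice 3 and 4 lay just under the Nfat5fl/fl arrays. The means were 4.30 ± 0.53 in Nfat5(EC)-/- and 4.82 ± 0.06 in Nfat5fl/fl (SD, n = 3 each), and the difference of -0.52 did not pass (95% confidence interval -1.12 to 0.08, adjusted p = 0.193). Without Nfat5(EC)-/- mouse 1 it was -0.22 (adjusted p = 0.470).

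Both CCN genes rose. Ccn1, an immediate target of YAP and TEAD that encodes an integrin-binding matricellular protein, measured 6.86, 7.00 and 7.10 in Nfat5(EC)-/- mice 1, 3 and 4, against 5.78, 6.13 and 6.48 in Nfat5fl/fl mice 1, 3 and 4. The groups did not overlap, and the Nfat5fl/fl arrays were more spread than the Nfat5(EC)-/- arrays. The means were 6.99 ± 0.12 in Nfat5(EC)-/- and 6.13 ± 0.35 in Nfat5fl/fl (SD, n = 3 each), a rise of 0.86 (SE 0.22, adjusted p = 0.0227), or 1.81-fold. The call was lost with Nfat5(EC)-/- mouse 4 left out (adjusted p = 0.0513), with Nfat5fl/fl mouse 1 left out (0.68, adjusted p = 0.0937), with Nfat5fl/fl mouse 3 left out (adjusted p = 0.0809) and without variance moderation (adjusted p = 0.0889).

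Ccn2, which encodes connective tissue growth factor, measured 6.41, 6.25 and 6.07 in Nfat5(EC)-/- mice 1, 3 and 4, against 5.40, 5.43 and 5.62 in Nfat5fl/fl mice 1, 3 and 4. The groups did not overlap. The means were 6.24 ± 0.17 in Nfat5(EC)-/- and 5.48 ± 0.12 in Nfat5fl/fl (SD, n = 3 each), a rise of 0.76 (SE 0.19, adjusted p = 0.0195), or 1.70-fold. The call was lost with Nfat5fl/fl mouse 1 left out (adjusted p = 0.0796) and with Nfat5fl/fl mouse 3 left out (adjusted p = 0.0807).

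The genes closest in pattern to Ccn1 over the 6 arrays were Rasl11a, a small GTPase of the Ras family (0.0217), Smpd1, acid sphingomyelinase (0.0417), and Tinagl1, a secreted matrix protein (0.06), each value being the root mean square difference of centred log2 values. Those closest to Ccn2 were Dap, death-associated protein (0.0286), Shox2, a homeobox factor (0.0501), and Col8a2, a chain of type VIII collagen (0.0568). Shox2 was low in both genotypes, with means of 2.76 in Nfat5(EC)-/- and 1.96 in Nfat5fl/fl.

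Gene span, the genomic distance from a gene's start to its end with introns, moved with the calls over the whole array. When the 19686 protein-coding features were ordered by span and divided into 10 equal groups from short to long, 20.2% of the second group, which holds Ccn1 (3015 bp) and Ccn2 (3242 bp), rose and 3.05% fell. In the seventh, which holds Lats1 (35262 bp), 12% rose and 22.2% fell. In the ninth, which holds Yap1 and Tead4 (73671 bp), 6.55% rose and 32.1% fell, and in the tenth, which holds Wwtr1 and Tead1 (227429 bp), 4.27% rose and 30.8% fell. Tead2 lay in the fifth group (16.6% rose and 10% fell), Tead3 in the sixth (13.7% rose and 14.6% fell) and Lats2 in the eighth (8.74% rose and 25.2% fell). Of all protein-coding features, 13.2% rose and 15.1% fell.

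With the trend on gene span removed from each array, among protein-coding features, Ccn1 and Ccn2 no longer passed, at 0.63 (adjusted p = 0.0604) and 0.53 (adjusted p = 0.0708). Lats1 stood at -1.64, Tead2 at 0.97, Tead3 at 1.30 and Tead4 at 1.29, and these passed. Tead1 moved to -0.86 (adjusted p = 0.138). The plot of differences shows both values of each gene.

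**Figure D2:**
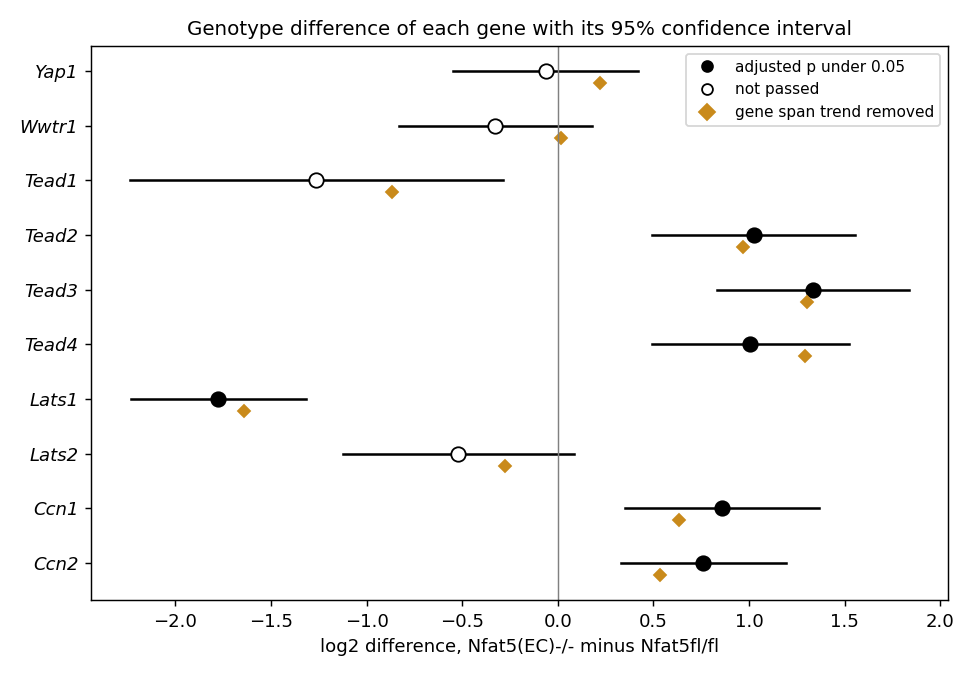
Difference between Nfat5(EC)-/- and Nfat5fl/fl lungs on the log2 scale for each gene, as a circle with its 95% confidence interval (limma, 3 arrays per genotype), filled where the adjusted p was under 0.05, and as a diamond after the trend on gene span was removed. Lats1 at -1.78 and Tead3 at 1.34 lie farthest from 0 among the genes that passed, and Ccn1 and Ccn2 move toward 0 in the diamonds while Tead4 moves away from it.

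Whether paralogues changed unequally was asked within each array, by subtracting the value of one gene from that of the other and comparing the genotypes in 9 pairs with an exact permutation test, 2-sided. With 3 arrays against 3 the smallest p this test can give is 0.1, so that no pair could pass. The genotype difference was -2.29 for Tead1 minus Tead2, -2.60 for Tead1 minus Tead3 and -2.27 for Tead1 minus Tead4. It was -1.26 for Lats1 minus Lats2. In these 4 pairs the groups did not overlap (exact permutation p = 0.1 each, 0.225 after adjustment over the 9 pairs). Nfat5(EC)-/- mouse 4 was the lowest array in each of them. The pairs with Tead1 share its values and are not separate results.

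The remaining 5 pairs overlapped. The difference was 0.26 for Yap1 minus Wwtr1 (exact permutation p = 0.3), -0.31 for Tead2 minus Tead3 (exact permutation p = 0.2), 0.02 for Tead2 minus Tead4 (exact permutation p = 1), 0.33 for Tead3 minus Tead4 (exact permutation p = 0.4) and 0.10 for Ccn1 minus Ccn2 (exact permutation p = 0.7). After adjustment over the 9 pairs these p-values lay between 0.36 and 1. At this number of arrays, such values do not show that the paralogues changed alike.

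**Figure D3:**
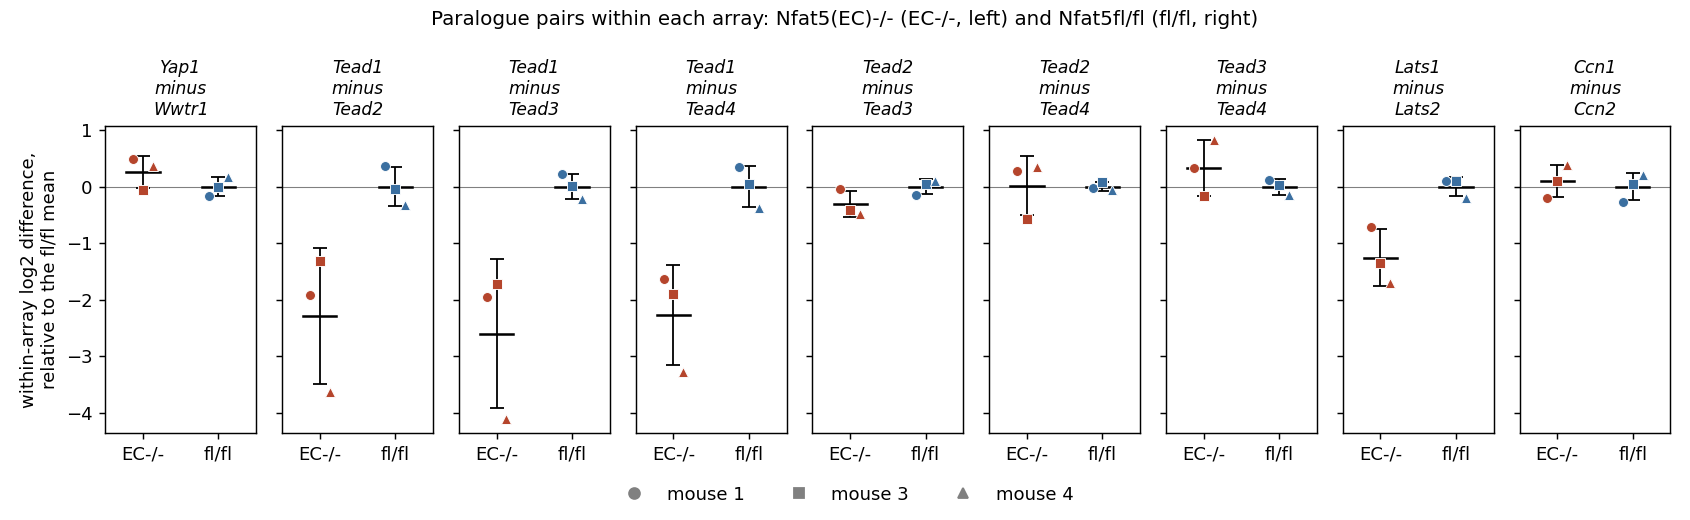
Difference between paralogues within each array on the log2 scale, set to 0 at the Nfat5fl/fl mean of each pair, with 1 point per mouse, group means as lines and SD as error bars (n = 3 each), Nfat5(EC)-/- on the left and Nfat5fl/fl on the right. The genotypes are apart for Tead1 against each of the other TEAD genes and for Lats1 against Lats2, and overlap in the other 5 pairs.

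The wider pathway was described with 6 lists of 71 genes, of which 66 were measured by name, 17 higher, 15 lower and 34 not passed, where 12.5% of all features were higher and 13.1% lower. With the span trend removed, 15 were higher and 10 lower. Their median difference was -0.06, against 0.04 for all features. Amotl2, Ajuba and Ptpn14 are on both the junction list and the target list, and Wwc1 is on both the kinase list and the target list. These genes count once in the 66 and again in each of their lists below. The plot of pathway lists gives each gene.

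**Figure D4:**
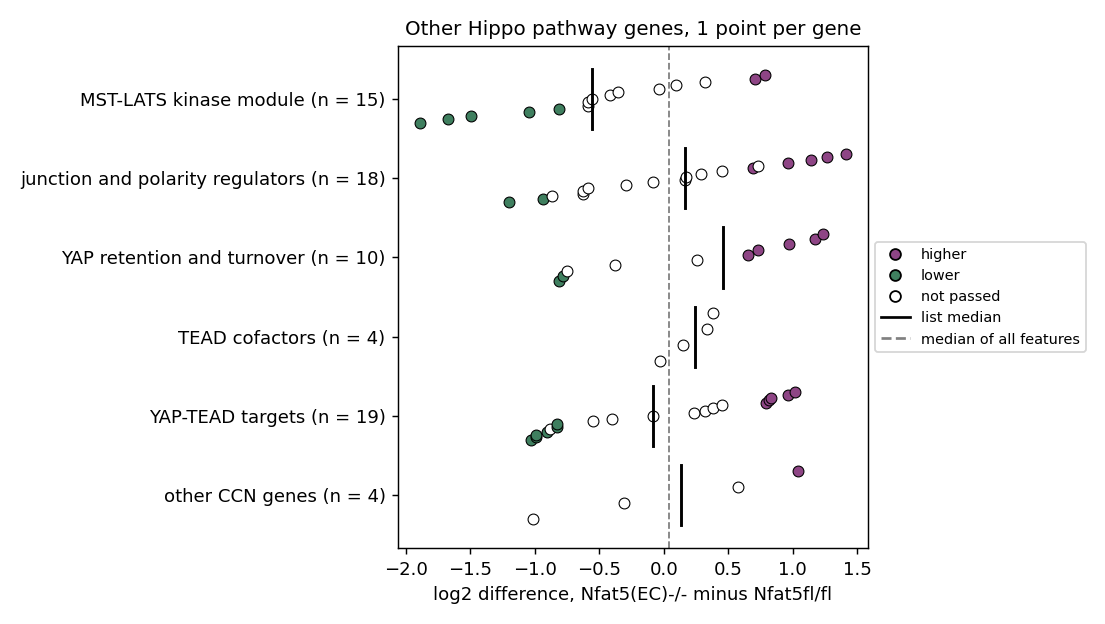
Log2 difference, Nfat5(EC)-/- minus Nfat5fl/fl, of each measured gene of 6 Hippo pathway lists. There is 1 point per gene in each list, so that genes on more than 1 list are drawn in each. Points are spread vertically only to keep them apart and are filled where the gene passed. A bar marks each list's median and a dashed line the median of all features (0.04). The kinase list has its median at -0.56 and the list of YAP retention and turnover at 0.46.

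In the kinase module upstream of LATS, 5 of the 15 genes measured were lower, 2 were higher and 8 did not pass, with a median difference of -0.56, where 13.1% of all features were lower. Of these 15 genes, 10 lie in the eighth, the ninth or the tenth group by span, in which 25.2%, 32.1% and 30.8% of features fell. Not all genes that fell are in those groups, as Mob1b lies in the seventh, in which 22.2% fell. The count was not tested against these shares. Taok1, a TAO kinase that activates MST kinases, measured 5.05, 5.53 and 4.35 in Nfat5(EC)-/- mice 1, 3 and 4, against 7.07, 6.83 and 6.71 in Nfat5fl/fl mice 1, 3 and 4, a difference of -1.89 (adjusted p = 0.00333). Map4k5, a kinase that acts beside MST, fell by 1.68 (adjusted p = 0.00304), and Mob1b, one of the MOB1 scaffolds that activate LATS, fell by 1.50 (adjusted p = 0.00533). As with Lats1, the arrays of the genotypes were apart in all 3 of these genes. Without variance moderation Taok1 and Mob1b no longer passed (adjusted p = 0.0601 for Taok1 and 0.0666 for Mob1b). With the span trend removed all 3 passed, at -1.57 for Taok1, -1.36 for Map4k5 and -1.35 for Mob1b. The 2 genes of the list that rose were Mink1, by 0.79 (adjusted p = 0.0259), and Map4k1, by 0.70 (adjusted p = 0.0253). For Stk3, Map4k2 and Map4k3 no feature was matched by name.

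Taok3, another TAO kinase, fell by 0.81 (adjusted p = 0.0133), a call lost with Nfat5fl/fl mouse 1 left out (adjusted p = 0.0632), with Nfat5fl/fl mouse 3 left out (adjusted p = 0.0562) and with the span trend removed, where the difference was -0.45. Among those that did not pass, Stk4, which encodes MST1, was at -0.58 (adjusted p = 0.0879), and at -0.78 without Nfat5(EC)-/- mouse 3, where it passed (adjusted p = 0.0280). Map4k4 was at -0.56 (adjusted p = 0.0952), and at -0.37 without Nfat5(EC)-/- mouse 1. With the span trend removed, Stk4 was at -0.28 and Map4k4 at -0.21.

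Among regulators at junctions and of cell polarity, 5 of the 18 genes measured were higher, 2 were lower and 11 did not pass, with a median of 0.17. Of these 18 genes, 10 lie in the eighth, the ninth or the tenth group by span, in which 25.2%, 32.1% and 30.8% of features fell. Those that fell, Fat4 and Mpp5, lie in the tenth and the ninth. Those that rose lie in the second, the fifth or the sixth. The counts were not tested against these shares. Of all features, 12.5% were higher and 13.1% lower. Wtip, an Ajuba-family LIM protein that binds LATS, measured 5.61, 5.59 and 5.59 in Nfat5(EC)-/- mice 1, 3 and 4, against 4.35, 4.13 and 4.05 in Nfat5fl/fl mice 1, 3 and 4, a rise of 1.42 (adjusted p = 0.00224). Scrib, a basolateral polarity scaffold, rose by 1.27 (adjusted p = 0.00448), and Crb3, an apical polarity protein, by 1.14 (adjusted p = 0.00514). Fat4, an atypical cadherin, was the gene of this list with the lowest difference, at -1.20 (adjusted p = 0.00485). With the span trend removed Fat4 was at -0.85 (adjusted p = 0.0198). Dchs1, a cadherin ligand of FAT4, was at 0.73 (adjusted p = 0.115) and Ctnna1, alpha-catenin, at -0.87 (adjusted p = 0.115), neither of which passed. Both moved with single arrays. Dchs1 was at 0.42 without Nfat5(EC)-/- mouse 4 (adjusted p = 0.281) and at 1.04 without mouse 1 of that genotype, where it passed (adjusted p = 0.0213). Ctnna1 was at -0.43 without Nfat5(EC)-/- mouse 4 (adjusted p = 0.257) and at -1.26 without mouse 3 of that genotype, where it passed (adjusted p = 0.0206).

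Among genes for the retention and breakdown of YAP, 5 of the 10 genes measured were higher, 2 were lower and 3 did not pass, with a median of 0.46. Of all features, 12.5% were higher and 13.1% lower. Most encode 14-3-3 proteins, which hold phosphorylated YAP in the cytoplasm, and they moved in both directions. Ywhaq rose by 1.24 (adjusted p = 0.00595) and Sfn, the epithelial 14-3-3 sigma, by 1.17 (adjusted p = 0.00443). Ywhag rose by 0.97 (adjusted p = 0.0253), a call that was lost with Nfat5(EC)-/- mouse 1 or 3 or Nfat5fl/fl mouse 1 or 3 left out, the highest adjusted p being 0.108 without Nfat5fl/fl mouse 3. Without variance moderation neither Ywhag (adjusted p = 0.122) nor Ywhaq (adjusted p = 0.0556) passed. Ywhae fell by 0.78 (adjusted p = 0.0181), which was lost with Nfat5fl/fl mouse 1 left out (adjusted p = 0.0631) and with Nfat5fl/fl mouse 4 left out (adjusted p = 0.0694). The ubiquitin ligase subunits Btrc, at -0.75 (adjusted p = 0.155), and Fbxw11, at -0.38 (adjusted p = 0.201), which mark phosphorylated YAP for breakdown, did not pass. Btrc was at -0.31 without Nfat5(EC)-/- mouse 1, its lowest array, and Fbxw11 at -0.047 with the span trend removed.

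The vestigial-like cofactors, which compete with YAP and TAZ for TEAD factors or act with these, did not pass in any of the 4 measured genes. Vgll2 was at 0.38 (adjusted p = 0.206) and Vgll4 at 0.34 (adjusted p = 0.347), and the median of the 4 was 0.25. Vgll4 was at 0.18 without Nfat5fl/fl mouse 1 and at 0.55 without Nfat5fl/fl mouse 4, and with the span trend removed Vgll2 was at 0.14 and Vgll4 at 0.67.

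Other known targets of YAP and TEAD moved in both directions. Of 19 measured targets, 6 fell, 5 rose and 8 did not pass, with a median difference of -0.08. Of all features, 13.1% fell and 12.5% rose. Among the 19 targets, 10 lie in the eighth, the ninth or the tenth group by span, in which 25.2%, 32.1% and 30.8% of features fell. Amotl2, a feedback inhibitor of YAP, measured 5.88, 5.98 and 5.96 in Nfat5(EC)-/- mice 1, 3 and 4, against 4.91, 4.88 and 5.14 in Nfat5fl/fl mice 1, 3 and 4, a rise of 0.96 (adjusted p = 0.00660). Arhgef17 rose by 1.02 (adjusted p = 0.0120), which was lost with Nfat5fl/fl mouse 1 left out (adjusted p = 0.0581) and with Nfat5fl/fl mouse 3 left out (adjusted p = 0.0504).

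Asap1, a GTPase-activating protein of focal adhesions, fell by 0.91 (adjusted p = 0.00917), and Rbms3, an RNA-binding protein gene, by 0.83 (adjusted p = 0.0178). With the span trend removed neither passed (-0.49 for Asap1 and -0.34 for Rbms3). Without Nfat5fl/fl mouse 3 neither passed (adjusted p = 0.0507 for Asap1 and 0.0640 for Rbms3), and Rbms3 did not pass with Nfat5fl/fl mouse 1 left out (adjusted p = 0.0769). Tgfb2, a growth factor, was at -0.88 and did not pass (adjusted p = 0.0506), although it did with Nfat5(EC)-/- mouse 3 left out (-1.19, adjusted p = 0.00993), with features above the median level only (adjusted p = 0.0365), after cyclic loess (adjusted p = 0.0489) and among protein-coding features (adjusted p = 0.0443). Crim1, a BMP-binding membrane protein, was at -0.55 (adjusted p = 0.129). Ankrd1, a widely used readout of YAP chosen here after its values were seen, measured 5.06, 4.95 and 5.86 in Nfat5(EC)-/- mice 1, 3 and 4, against 6.78, 6.03 and 6.03 in Nfat5fl/fl mice 1, 3 and 4, and fell by 0.99 (adjusted p = 0.0434), the other way from Ccn1 and Ccn2. This call was lost with any array but that of Nfat5(EC)-/- mouse 4 left out, down to -0.74 without Nfat5fl/fl mouse 1 (adjusted p = 0.159), with arrays centred on protein-coding features (adjusted p = 0.0513) and without variance moderation (adjusted p = 0.179). Without variance moderation, Arhgef17 (adjusted p = 0.0697) and Rbms3 (adjusted p = 0.0622) did not pass either.

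In the rest of the CCN family, 1 of 4 measured genes rose and 3 did not pass, with a median of 0.14, where 12.5% of all features rose. Ccn5, which lacks the C-terminal domain of the other members, measured 6.21, 6.22 and 6.49 in Nfat5(EC)-/- mice 1, 3 and 4, against 5.03, 5.08 and 5.69 in Nfat5fl/fl mice 1, 3 and 4, a rise of 1.04 (adjusted p = 0.0120). That call was lost with Nfat5fl/fl mouse 1 left out (adjusted p = 0.0589), with Nfat5fl/fl mouse 3 left out (adjusted p = 0.0609) and without variance moderation (adjusted p = 0.0740). Ccn3 was at 1.58, 3.50 and 2.64 in Nfat5(EC)-/- mice 1, 3 and 4 and at 3.48, 3.59 and 3.70 in Nfat5fl/fl mice 1, 3 and 4, so that mouse 3 lay within the Nfat5fl/fl range. Its difference of -1.02 did not pass (adjusted p = 0.103), being -0.52 without Nfat5(EC)-/- mouse 1 (adjusted p = 0.210) and -1.48 without Nfat5(EC)-/- mouse 3, where it passed (adjusted p = 0.0137). Ccn6 was at 0.58 (adjusted p = 0.263), and at 0.17 without Nfat5(EC)-/- mouse 1, its highest array.

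Some markers of lung cell types passed the test beside these genes, where 25.6% of all features passed, 12.5% higher and 13.1% lower. Of 8 endothelial markers, 3 fell and 2 rose, and their mean level was 7.24 to 7.48 in Nfat5(EC)-/- arrays and 7.58 to 7.72 in Nfat5fl/fl arrays. Of 6 fibroblast markers 2 rose and 1 fell (6.36 to 6.47 in Nfat5(EC)-/- and 6.42 to 6.46 in Nfat5fl/fl), and of 6 smooth muscle markers 1 rose (6.25 to 6.52 in Nfat5(EC)-/- and 5.74 to 6.31 in Nfat5fl/fl). Of 4 mesothelial markers 1 rose (5.19 to 5.26 in Nfat5(EC)-/- and 4.25 to 4.51 in Nfat5fl/fl). Alveolar markers held 1 of 5 higher and 1 lower for type 1 cells and 2 of 5 lower for type 2 cells, club cell markers 0 of 3 passing, cardiac muscle markers 2 of 4 higher and macrophage markers 2 of 4 lower. The genes of highest mean level in these lists, in the order of the sentences above, were Cdh5, Dcn, Acta2, Upk3b, Ager, Sftpc, Scgb1a1, Actc1 and Cd68. The endothelial markers that fell, Pecam1, Cdh5 and Emcn, lie in the eighth or the ninth group by span. Those that rose, Egfl7 and Cldn5, lie in the fourth and the first. The macrophage markers that fell, Mrc1 and Adgre1, lie in the ninth and the tenth. Of the type 2 markers that fell, Lamp3 lies in the eighth and Sftpa1 in the second. The marker counts were not tested against the shares of these groups. The part of these markers in the results of the Hippo pathway genes was not tested.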

How the data were processed

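Total RNA of 1 lung lobe per mouse was labelled with biotin and hybridised, using 1 array for each mouse. The authors deposited log2 values that the labels credit to RMA. This method corrects for background, makes the distribution of values the same on every array and combines the probes of a gene, so that a change in total RNA would not be visible. Its version, how probes were assigned to genes, and the build were not named in the sources used here. Values carry no detection call, and small values are compressed.

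Groups and mouse numbers came from the sample titles. All features were fitted with limma 3.58.1 (R 4.3.3, lmFit and eBayes, 2-sided) on all 6 arrays without covariates or a filter, with Benjamini-Hochberg adjustment over 25428 features. The member genes, gene lists, markers and tests were chosen with earlier results of these data known. Named genes were Nfat5, the 10 members, per pathway list up to 4 genes that passed and up to 2 that did not with the smallest p, and the 3 genes closest in pattern to Yap1, Ccn1 and Ccn2. Ankrd1 and some further genes of the lists and markers were named outside this rule, after their values were seen. For 5 listed genes no feature was matched by name, and these were not analysed here. Gene spans and promoters came from RefSeq (GRCm38.p6). The fit was tested before use on simulated data with 200 changed features per run. It recovered 15.8% of changes of log2 size 1 and 75% of those of size 2, and 3.2% of its calls were false. In the data 25.6% of the 25428 features passed, a far larger share than the 200 changed per run. The adjustment depends on this share, so these rates do not describe the calls made here. Alternatives were a block for mouse number, features above the median level only, 2 further normalizations, other variance moderation, array weights, 2 fits of protein-coding features and leaving out each array in turn. Figures were drawn with matplotlib 3.10.9.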

Additional observations from a re-analysis of the deposited data

How the results depend on the processing

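Of 150 member values under the alternatives, 129 kept their direction and side of the threshold, 12 no longer passed, 6 newly passed and 3 turned direction. The last were Yap1, at 0.22 with the span trend removed and 0.053 without Nfat5fl/fl mouse 4 (-0.24 to 0.053 without 1 array), and Wwtr1, at 0.018 with the span trend removed, none of which passed in any setting. Lats1 and Tead3 passed in all settings. The number of members that fell, 1, was 2 with the mouse number as a block, with features above the median level only, with a variance trend and robust moderation, and with array weights, since Tead1 then passed, and 1 to 2 without 1 array. The number that rose, 5, was 2 without variance moderation, 3 with the span trend removed, and 1 to 5 without 1 array (1 without Nfat5fl/fl mouse 1 and 3 without Nfat5fl/fl mouse 3). Of the genes in the pathway lists, 15 fell and 17 rose, against 6 and 8 without variance moderation, 6 to 20 and 7 to 14 without 1 array. Without Nfat5fl/fl mice 1, 3 or 4 in turn, 7, 6 and 9 fell and 7, 7 and 11 rose. The number of paralogue pairs whose groups did not overlap, 4, was 4 to 7 without 1 array (7 without Nfat5(EC)-/- mouse 3), where fewer arrays are compared. Other causes of these shifts were not tested.

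The alternatives were run for 37 other genes (Nfat5, the genes named by rule from the pathway and immediate early lists, and Ankrd1). Of their 553 values, 497 kept direction and side, 47 no longer passed, 9 newly passed and 0 turned. The genes closest in pattern to members were not run under the alternatives. The stability of the other genes named outside the rule was not examined singly. Under the replicate block, Ankrd1 no longer passed (adjusted p = 0.0573) and Tgfb2 passed (adjusted p = 0.0283).

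Same-numbered mice deviated from their group means with correlations of 0.0647, -0.0103 and 0.00719. Differently numbered mice had correlations from -0.11 to 0.105. With 3 arrays per group, such values cannot decide whether the mouse numbers pair the samples. With the replicate block 2 members fell and 5 rose, and 15 and 16 genes of the pathway lists fell and rose. With 3 arrays per group, calls near the threshold rest on single arrays, and signal over background was not known.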

Other observations

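Ccn1 is also known as an immediate early gene, a class induced within minutes of stimulation and by tissue handling. Of 11 other measured genes of this class, 4 rose and 7 did not pass, with a median difference of 0.57, where 12.5% of all features rose. Of these 11 genes, 8 are in the first or second group by gene span. In the first, which holds Junb and Ier2, 178 of 1969 features rose, with a median of 0.11. In the second, 20.2% of features rose, with a median of 0.26. Junb, an AP-1 subunit, measured 6.86, 6.48 and 6.31 in Nfat5(EC)-/- mice 1, 3 and 4, against 4.49, 4.11 and 4.51 in Nfat5fl/fl mice 1, 3 and 4, a rise of 2.17 (adjusted p = 0.00151) that passed in all alternatives. Egr1, a zinc finger factor, rose by 0.95 (adjusted p = 0.0166), which was lost without Nfat5fl/fl mouse 3 (adjusted p = 0.0731) and without variance moderation (adjusted p = 0.0831). Zfp36, an RNA-decay factor, rose by 0.77, a call lost without any of 4 single arrays (adjusted p up to 0.124, without Nfat5fl/fl mouse 3), and Ier2 rose by 0.98, likewise lost (adjusted p up to 0.129, without Nfat5fl/fl mouse 1). Neither passed with the span trend removed or without variance moderation. Atf3, at 0.58, Btg2, at 0.57, Jun, at 0.51, and Nr4a1, at 0.45, did not pass. Nor did Fos, at 0.23 (adjusted p = 0.523), Fosb, at 0.20 (adjusted p = 0.555), or Dusp1, at -0.06 (adjusted p = 0.912). Dusp1 had the highest mean level of this list. The part of this class in the result for Ccn1 was not tested.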
